A study of Mus musculus with 24 samples.

Results

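The renin-angiotensin system and the natriuretic peptide system act on blood pressure and salt balance in opposite directions, and 9 of their genes were followed here over the light-dark cycle in hearts of Clock mutant mice. The genes are Agt, Ace, Agtr1a and Agtr1b of the angiotensin system and Nppa, Nppb, Corin, Npr1 and Npr3 of the natriuretic peptide system. They were found as array features whose only gene symbol in the platform annotation is 1 of these 9, which gave 10 of 34351 features, 2 for Npr1 and 1 for each of the others, and 9 of the 22180 genes tested. The rule itself uses gene symbols and no measured value, but the 9 genes were chosen with earlier results of these data known.

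All 24 hearts came from male mice homozygous for Clock delta 19, a mutation whose protein product cannot activate transcription as the normal clock protein does. The mice were 8 weeks old and kept under 12 h of light and 12 h of darkness. Hearts were collected at zeitgeber times (ZT, hours after lights came on) ZT03, ZT07 and ZT11, which fall in the light, and ZT15, ZT19 and ZT23, which fall in the dark, with 4 biological replicates at each. Every group carries the mutation, wild-type hearts were not analysed here, and so no value below speaks to the effect of the mutation. The labels call the tissue myocardium and do not say which chambers it held.

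Angiotensinogen, the product of Agt, is cleaved by renin and then by the angiotensin-converting enzyme Ace to give angiotensin II, which acts through the type 1 receptor. Mice have 2 genes for that receptor, Agtr1a and Agtr1b. The peptides ANP and BNP, from Nppa and Nppb, are made by heart muscle cells and released on stretch, the protease corin activates pro-ANP, Npr1 is the receptor that makes cyclic GMP, and Npr3 clears the peptides. In the heart, Nppa is made mainly in atrial muscle after birth, and both peptide genes are known to be raised in loaded or failing ventricles.

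Nppa and Nppb are neighbours on mouse chromosome 4, and their upstream sequence is shown because these genes varied more between hearts than the other 7. The 250 bases before each annotated start (RefSeq, GRCm38.p6) are chr4:148000472-148000721, plus strand, for Nppa and chr4:147985650-147985899, plus strand, for Nppb. Capitals mark matches to AGATAA or TGATAA (bound by GATA factors), TGAAGTG (bound by Nkx2-5) and CATTCC (the M-CAT element, bound by TEAD factors), each searched on both strands.
Nppa: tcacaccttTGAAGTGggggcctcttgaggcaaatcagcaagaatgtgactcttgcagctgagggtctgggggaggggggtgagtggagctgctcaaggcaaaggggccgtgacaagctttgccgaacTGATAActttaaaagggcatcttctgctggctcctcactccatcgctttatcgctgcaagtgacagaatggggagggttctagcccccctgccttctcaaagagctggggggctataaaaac
Nppb: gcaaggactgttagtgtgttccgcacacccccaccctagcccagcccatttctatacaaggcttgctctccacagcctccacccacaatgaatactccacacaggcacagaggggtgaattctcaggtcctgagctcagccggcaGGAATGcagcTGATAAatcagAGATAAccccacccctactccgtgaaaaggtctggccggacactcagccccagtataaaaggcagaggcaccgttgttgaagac

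The Nppa window held 1 GATA match, 122 to 117 bases before the start, and the Nkx2-5 match, 241 to 235 bases before it. The Nppb window held 2 GATA matches, 95 to 90 and 84 to 79 bases before the start, and the M-CAT match on the reverse strand, 105 to 100 bases before it. No match overlaps another. Windows of 300 bases, which add the first 50 bases after the start, were available for 8 of the 9 genes (9 windows, 2 for Ace), and the clock E-box CACGTG was in 0 of these 9. Among all 32851 RefSeq windows of that length, 7.15% held CACGTG, 18.6% a GATA match, 4.02% TGAAGTG and 14.7% CATTCC. The motifs were chosen after the sequences were seen, and a match or its absence says only which letters stand in the window.

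All values are log values, taken as log2, that the authors had centred on each feature's own median over the 24 arrays, so 0 is that gene's median heart. One gene's level thus cannot be compared with another's, and a low spread cannot be told apart from a signal close to background. The spacing of the deposited numbers gives 1 rough class. Of 22180 genes, 461 had a feature at 8 or more in every heart before centring. Among them were Nppa, Nppb, Corin and all 7 cardiomyocyte markers, while the ventricle marker Myl2 was not. The other 6 genes of the 2 systems were not in that class. Of all genes, ZT11 replicate 1 had 16.2% outside the range of the other 23 hearts, while the share in the other hearts was 6.16% to 12.4%. In ZT19 replicate 2 the clock gene Arntl lay at -0.83, against -0.42 or higher in the other hearts. Without ZT11 replicate 1 the light minus dark difference of Agtr1a was 0.34 (limma, adjusted p = 0.0101) and without ZT19 replicate 2 it was 0.30 (adjusted p = 0.0257), against 0.32 in all hearts.

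Of the angiotensin genes, Agtr1a was higher in the light phase, while Agt, Ace and Agtr1b passed none of the 6 tests, each fitted by limma over all 22180 genes with Benjamini-Hochberg adjustment. Agtr1a was also the only 1 of the 9 genes past the threshold of 0.05 in any test. Its F test for any difference among times was past the threshold, as it was for 1.48% of all genes. It passed light minus dark as higher in light, where 0.379% of all genes passed, 0.243% as higher in light and 0.135% as lower. It also passed ZT03 minus ZT15, where 1.08% of all genes passed, 0.879% as higher at ZT03. No gene of the 22180 passed ZT07 minus ZT19 or ZT11 minus ZT23 by limma (0%), although 1238 and 1628 had an unadjusted p under 0.05, and 0.0631% passed the fit of a 24 h cosine. With samples from 1 cycle, a fitted cosine is no measure of repetition from day to day.

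Agt, the precursor of all angiotensins, stayed close to its median, with time-point means between -0.04 at ZT07 and 0.05 at ZT15. Hearts lay between -0.12 and 0.10 in the light phase and between -0.12 and 0.16 in the dark phase. The phases overlapped over nearly their whole ranges. The light minus dark difference was -0.01 (95% confidence interval -0.07 to 0.04, adjusted p = 0.896 by limma), and ZT03 minus ZT15 was -0.03 (-0.13 to 0.06).

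Ace, the converting enzyme of vascular endothelium, had its highest mean at ZT19, 0.11 ± 0.07 (SD, n = 4), and its lowest at ZT23, -0.05 ± 0.15 (SD, n = 4). The hearts lay at 0.10, 0.0019, -0.03 and -0.22 at ZT07, against 0.02, 0.11, 0.10 and 0.19 at ZT19. The heart at 0.10 fell within the ZT19 range and the other 3 ZT07 hearts below it. ZT07 minus ZT19 was -0.14 (unadjusted p = 0.0478, adjusted p = 0.889 by limma). Over whole phases the difference was -0.02 (95% confidence interval -0.10 to 0.06, adjusted p = 0.915).

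Agtr1a, the gene of the main type 1 angiotensin receptor of mice, was high early in the light phase and low in the dark phase. Its hearts lay at 0.24, 0.16, 0.18 and 0.25 at ZT03, at 0.04, 0.23, 0.26 and 0.25 at ZT07 and at -0.11, -0.10, -0.0026 and 0.24 at ZT11. In the dark phase they lay at 0.03, -0.37, -0.46 and -0.20 at ZT15, at -0.13, -0.30, 0.0026 and 0.05 at ZT19 and at -0.18, -0.21, -0.14 and -0.38 at ZT23. All ZT03 hearts were above all dark-phase hearts, as were 3 of the 4 ZT07 hearts, while ZT11 held 1 such heart and 3 that fell within the dark range. The lowest, median and highest values were -0.11, 0.20 and 0.26 in light and -0.46, -0.19 and 0.05 in dark, so the phases overlapped, with 8 of 12 light hearts above every dark heart and 9 of 12 dark hearts below every light heart.

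The light minus dark difference of Agtr1a was 0.32 ± 0.06 (SE, 95% confidence interval 0.21 to 0.44, adjusted p = 0.0163 by limma). Leaving out any 1 of the 24 hearts kept it past the threshold, at 0.30 to 0.35 (adjusted p 0.0101 to 0.0317). The difference was already known from an earlier analysis of these hearts and is no independent support. The F test and ZT03 minus ZT15 use the same hearts, so their calls are no independent support either. ZT03 minus ZT15 was 0.45 ± 0.10 (SE, 0.26 to 0.65, adjusted p = 0.0262), with no overlap between the hearts of those times. The share of all genes without such overlap was not counted. By limma, 2885 of 22180 genes had an unadjusted p under 0.05 in this contrast. With 1 heart fewer the ZT03 minus ZT15 call of Agtr1a was often lost while the difference moved little. Without any 1 of the 4 ZT03 hearts it was 0.44 to 0.47 (adjusted p 0.0534 to 0.0794). It was 0.41 without ZT15 replicate 2 (adjusted p = 0.0772), 0.38 without replicate 3 (0.0913) and 0.47 without replicate 4 (0.0549).

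The other pairs of opposite times ran the same way for Agtr1a without passing. ZT07 minus ZT19 was 0.29 (unadjusted p = 0.00681, adjusted p = 0.641 by limma) and ZT11 minus ZT23 was 0.23 (unadjusted p = 0.0258, adjusted p = 0.593). From high to low, the means were 0.21 ± 0.04 for ZT03, 0.19 ± 0.10 for ZT07, 0.01 ± 0.16 for ZT11, -0.09 ± 0.15 for ZT19, -0.22 ± 0.11 for ZT23 and -0.25 ± 0.22 for ZT15 (SD, n = 4 each). Hearts of every pair of neighbours in that order overlapped. The F test over time points gave an adjusted p of 0.0251, which rose to 0.0523 without ZT03 replicate 1, 0.0625 without ZT03 replicate 3 and 0.0537 without ZT07 replicate 3. The 24 h cosine had an amplitude, from mean to peak, of 0.22 ± 0.05 (SE) and a peak at ZT5.85, and did not pass (adjusted p = 0.095). It passed without ZT19 replicate 4 (amplitude 0.25, adjusted p = 0.0468).

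Agtr1b, the gene of the second type 1 receptor, known in rodents mainly from adrenal and pituitary, had time-point means between -0.02 and 0.02. The lowest and highest hearts were -0.05 and 0.05 in light and -0.07 and 0.13 in dark, and both extremes of the dark phase were ZT15 hearts. Its light minus dark difference was 0.0033 (95% confidence interval -0.04 to 0.04, adjusted p = 0.972 by limma). The receptor genes were then set side by side, a pair picked after these values were seen and so given with no test. The difference Agtr1a minus Agtr1b was 0.14 ± 0.14 in light and -0.18 ± 0.18 in dark (SD, n = 12 each), and it was above the dark median in 12 of 12 light hearts. The light minus dark difference of Agtr1a exceeded that of Agtr1b by 0.32. Since Agtr1b varied so little, this difference is close to that of Agtr1a alone.

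**Figure D1:**
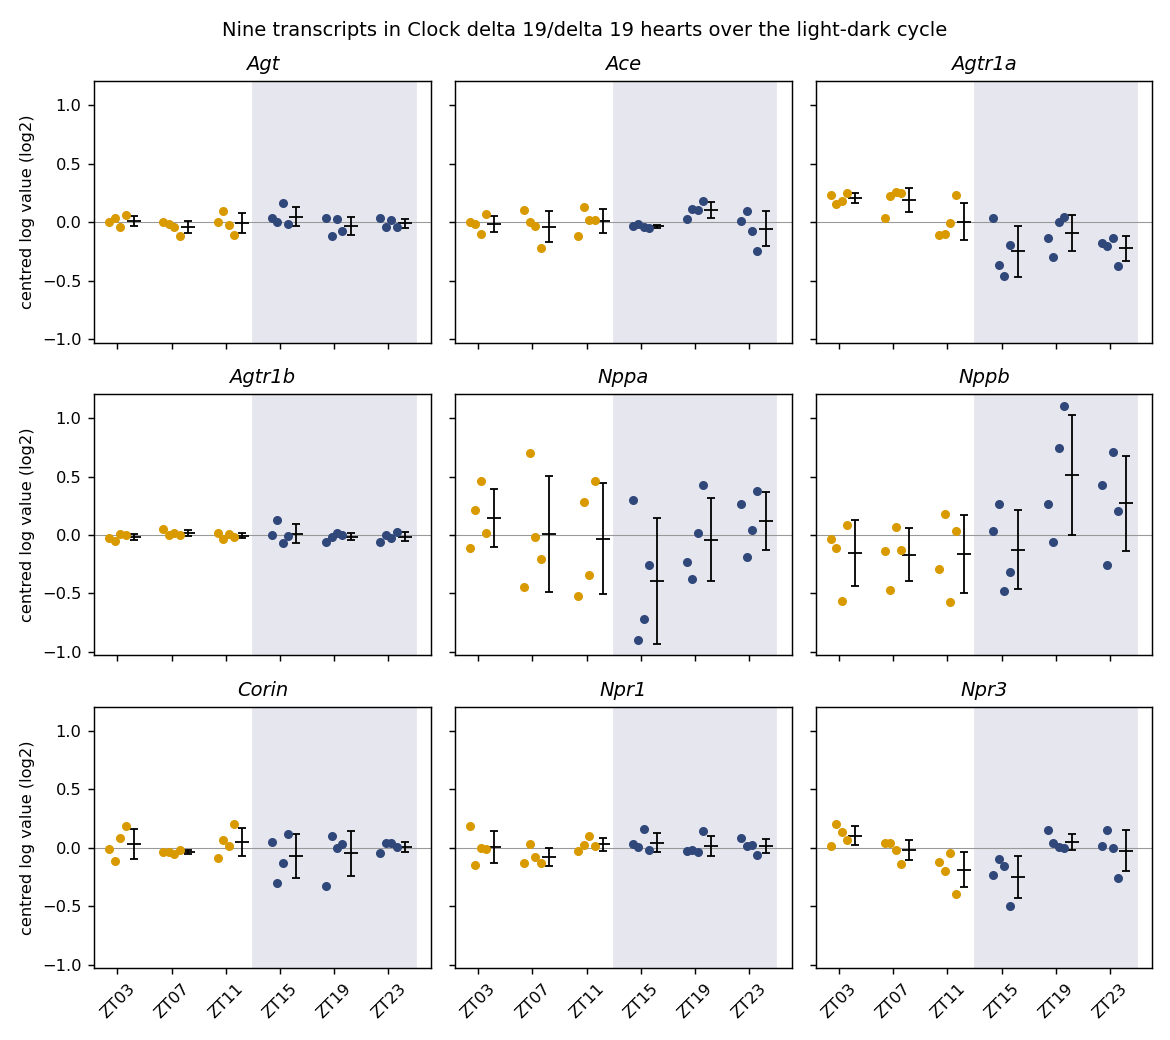
Centred log2 value of each transcript in each heart (vertical axis) against time point (horizontal axis), with 1 panel per gene. Dots are the 4 hearts of a time point, light phase in orange and dark phase in blue on a shaded ground, and bars are mean ± SD. Agtr1a lies between 0.16 and 0.25 at ZT03 and between -0.46 and 0.03 at ZT15, Nppa and Nppb scatter most within time points, and Npr3 is lowest at ZT11 and ZT15.

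Among the natriuretic peptide genes none passed a test, and the peptide genes themselves stood out by their spread between hearts of the same time. The SD within time points was 0.41 for Nppa and 0.36 for Nppb, against a median of 0.087 over all 22180 genes. Only 11 genes had a larger SD than Nppa and 19 a larger one than Nppb. Among the 461 genes of the upper class of values, where the median SD was 0.099, 1 had a larger SD than Nppa and 2 a larger SD than Nppb. Outside that class, the atrial markers Sln and Myl7 spread more widely than Nppa. Their SEs in light minus dark were 0.24 and 0.17, against 0.16 for Nppa. Those of the atrial markers Myl4, Bmp10, Kcnj3 and Dkk3 were smaller. The part of atrial tissue in the spread of Nppa was not tested. The percentile of this SD among all genes was 86.3 for Agtr1a, 81.5 for Corin, 81.2 for Npr3, 60 for Ace, 49.3 for Npr1, 33.9 for Agt and 15.6 for Agtr1b. Between its lowest and highest hearts Nppa differed 3.03-fold and Nppb 3.20-fold.

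**Figure D2:**
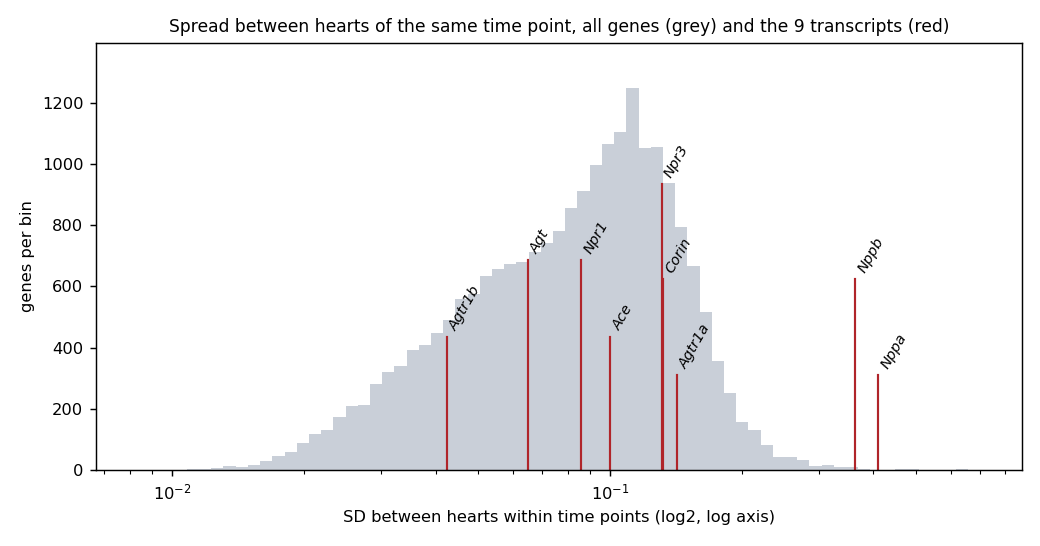
Number of genes (vertical axis) by SD between hearts within time points (horizontal axis, log2 values, log axis), all 22180 genes in grey. Red lines mark the 9 genes by their place on the horizontal axis, and the height of a line has no meaning. Nppa at 0.41 and Nppb at 0.36 lie at the right end of the distribution, and Agtr1b at 0.04 lies to the left of its middle.

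Nppa, which codes for ANP, scattered at each time point. Its hearts lay at -0.11, 0.21, 0.47 and 0.02 at ZT03, at -0.44, 0.70, -0.02 and -0.21 at ZT07 and at -0.52, 0.28, -0.34 and 0.46 at ZT11. In the dark phase they lay at 0.30, -0.90, -0.72 and -0.26 at ZT15, at -0.23, -0.37, 0.02 and 0.43 at ZT19 and at 0.26, -0.19, 0.04 and 0.37 at ZT23. The lowest pair of the 24 hearts was from ZT15, and the ZT15 heart at 0.30 was among the high ones. The means ran 0.15 ± 0.25, 0.01 ± 0.49, -0.03 ± 0.48, -0.39 ± 0.54, -0.04 ± 0.35 and 0.12 ± 0.25 (SD, n = 4 each) from ZT03 to ZT23, and hearts of all neighbours in level overlapped. ZT03 minus ZT15 was 0.54 ± 0.27 (SE, 95% confidence interval -0.03 to 1.10, adjusted p = 0.41 by limma), a larger difference than the 0.45 of Agtr1a that did not pass the test, with an SD within time points of 0.41. The light minus dark difference was 0.14 ± 0.16 (SE, -0.18 to 0.47, adjusted p = 0.808). Its 24 h amplitude was 0.22 ± 0.11 (SE, adjusted p = 0.624).

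Nppb, which codes for BNP, had its high hearts late in the dark phase. The hearts lay at -0.03, -0.11, -0.57 and 0.09 at ZT03, at -0.14, -0.47, 0.07 and -0.13 at ZT07 and at -0.29, 0.18, -0.57 and 0.03 at ZT11. In the dark phase they lay at 0.03, 0.26, -0.48 and -0.32 at ZT15, at 0.26, -0.06, 0.75 and 1.11 at ZT19 and at 0.43, -0.26, 0.71 and 0.20 at ZT23. The 7 highest hearts were all from the dark phase, 3 from ZT19, 3 from ZT23 and 1 from ZT15, while the other 5 dark hearts lay within the light range. The means were -0.15 ± 0.29, -0.17 ± 0.22 and -0.16 ± 0.34 over the light phase and -0.12 ± 0.34, 0.52 ± 0.52 and 0.27 ± 0.41 over the dark phase, in order of time (SD, n = 4 each), and neighbours in level overlapped.

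The differences of Nppb were among the widest of the 9 genes and did not pass over all genes. Light minus dark was -0.38 ± 0.14 (SE, 95% confidence interval -0.67 to -0.09, unadjusted p = 0.0122, adjusted p = 0.304 by limma). ZT07 minus ZT19 was -0.68 ± 0.24 (SE, unadjusted p = 0.00999, adjusted p = 0.717), ZT11 minus ZT23 was -0.43 ± 0.24 (SE, adjusted p = 0.747), and ZT03 minus ZT15 was -0.03 ± 0.24 (SE, adjusted p = 0.98). The 24 h amplitude was 0.33 ± 0.10 (SE) with a peak at ZT20.4 (adjusted p = 0.312). Without ZT19 replicate 4, the highest heart, the light minus dark difference was -0.32 and ZT07 minus ZT19 was -0.49.

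The neighbouring peptide genes were likewise set side by side after the values were seen, with no test. The difference Nppa minus Nppb was 0.20 ± 0.47 in light and -0.32 ± 0.43 in dark (SD, n = 12 each), and it was above the dark median in 11 of 12 light hearts. The light minus dark difference of Nppa exceeded that of Nppb by 0.53, and neither gene passed that contrast on its own. Over the 24 hearts, Nppa and Nppb correlated at Pearson's r = 0.21 (permutation p = 0.326) and Spearman's rho = 0.248 (p = 0.244). Within time points r was 0.236, and without the 2 hearts farthest from the median of Nppa it was 0.218.

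Corin, the protease that cleaves pro-ANP, had time-point means between -0.07 at ZT15 and 0.05 at ZT11. Its hearts lay between -0.11 and 0.20 in light and between -0.32 and 0.12 in dark, with the 3 lowest hearts in the dark phase and the 2 highest in the light phase. Light minus dark was 0.05 (95% confidence interval -0.06 to 0.16, adjusted p = 0.796 by limma), and ZT03 minus ZT15 was 0.10 (-0.08 to 0.29).

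Npr1, the guanylyl cyclase receptor of ANP and BNP, had means between -0.08 at ZT07 and 0.05 at ZT15, and every neighbour in level overlapped. Light minus dark was -0.04 (95% confidence interval -0.11 to 0.03, adjusted p = 0.748 by limma) and ZT03 minus ZT15 was -0.04 (-0.16 to 0.09). Its 2 features gave light minus dark differences of -0.01 and -0.06, and they took opposite signs at ZT11 minus ZT23, with 0.09 and -0.06, neither past the threshold (adjusted p = 0.797 and 0.955 over all features). At ZT15 the features had means of -0.01 ± 0.03 and 0.10 ± 0.18 (SD, n = 4 each), in the same order. The high ZT15 mean of the gene thus came from 1 feature, and the other had its highest mean at ZT11, 0.08 ± 0.05.

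Npr3, the receptor that removes natriuretic peptides from the circulation, had its lowest means around the change from light to dark. Its hearts lay at 0.01, 0.21, 0.13 and 0.07 at ZT03, against -0.23, -0.09, -0.16 and -0.50 at ZT15, and these groups did not overlap. The ZT11 hearts, at -0.12, -0.20, -0.05 and -0.39, were all below 0 as well. Hearts lay at 0.04, 0.04, -0.02 and -0.14 at ZT07, at 0.15, 0.04, 0.0077 and -0.00067 at ZT19 and at 0.01, 0.16, 0.00067 and -0.26 at ZT23. The means from ZT03 to ZT23 were 0.10 ± 0.08, -0.02 ± 0.08, -0.19 ± 0.15, -0.25 ± 0.18, 0.05 ± 0.07 and -0.02 ± 0.17 (SD, n = 4 each). The share of all genes without overlap between ZT03 and ZT15 was not counted.

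ZT03 minus ZT15 for Npr3 was 0.35 ± 0.09 (SE, 95% confidence interval 0.17 to 0.53, adjusted p = 0.0563 by limma), just short of the threshold. It passed with array weights (0.37, adjusted p = 0.0264), with the replicate number as a block (0.35, adjusted p = 0.0183) and without ZT11 replicate 4 (adjusted p = 0.0382) or ZT23 replicate 4 (adjusted p = 0.0366), and reached an adjusted p of 0.162 at most with another heart left out. The low values fall on both sides of the change of phase, at ZT11 and ZT15, and the light minus dark difference was 0.04 (-0.07 to 0.14, adjusted p = 0.848). The F test over time points gave an adjusted p of 0.131, which was 0.0294 with the replicate block. The 24 h amplitude was 0.15 ± 0.04 (SE) with a peak at ZT1.20 (adjusted p = 0.21).

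**Figure D3:**
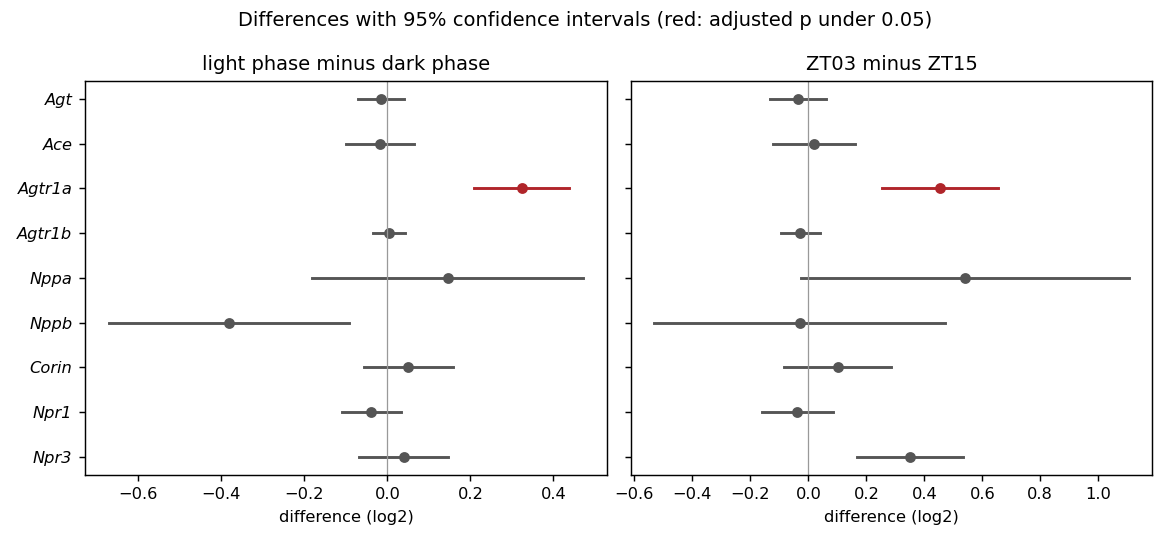
Difference in log2 value (horizontal axes) of each of the 9 genes, light phase minus dark phase on the left and ZT03 minus ZT15 on the right. Dots are limma estimates and bars 95% confidence intervals, in red where the adjusted p is under 0.05. Agtr1a is red in both panels, at 0.32 and 0.45, Nppb lies at -0.38 on the left with an interval of -0.67 to -0.09, and Npr3 lies at 0.35 on the right.

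Over the 24 hearts, 0 of 36 pairs of the 9 genes correlated past an adjusted p of 0.05, with 2 pairs at an unadjusted p under 0.05. The closest was Agtr1a with Nppa, at Pearson's r = 0.497 (permutation p = 0.0144, adjusted p = 0.39) and Spearman's rho = 0.40 (permutation p = 0.0537). Within time points its r was 0.602 (permutation p = 0.0154, adjusted p = 0.278), and without the 2 hearts farthest from the median of Agtr1a it was 0.543. Nppa with Corin, the substrate and its protease, had r = 0.465 (permutation p = 0.0217, adjusted p = 0.39) and rho = 0.389 (permutation p = 0.0613). For this pair r was 0.428 within time points (permutation p = 0.0796, adjusted p = 0.496) and 0.223 without the 2 hearts farthest from the median of Nppa. Npr3 with Corin had r = -0.317 over all hearts (permutation p = 0.127, rho = -0.203 with p = 0.336) and -0.578 within time points (permutation p = 0.00468, adjusted p = 0.168).

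**Figure D4:**
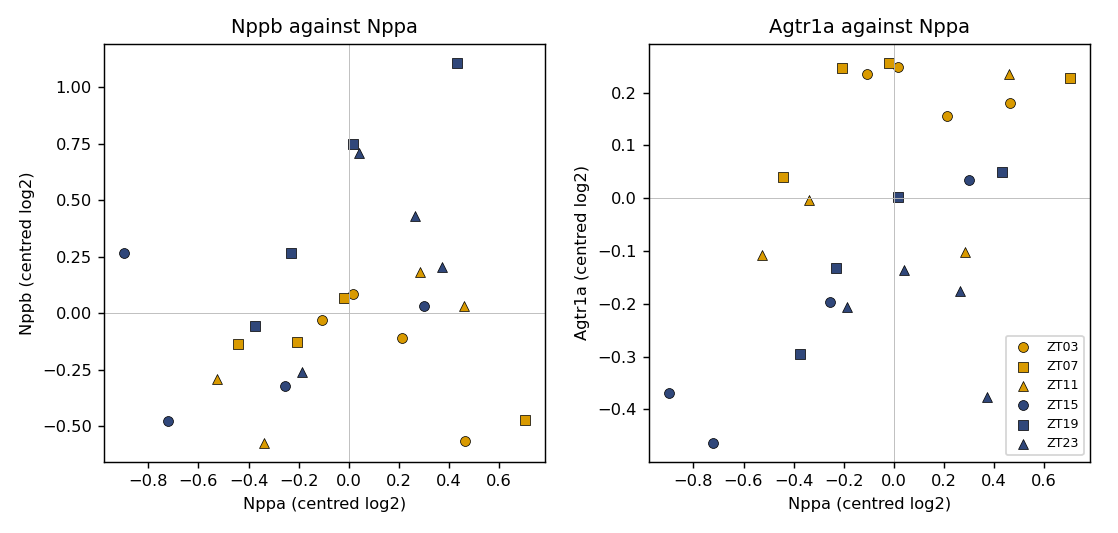
Each dot is 1 heart, with the centred log2 value of Nppa on both horizontal axes, that of Nppb on the left vertical axis and that of Agtr1a on the right one. Colour gives the phase (light in orange, dark in blue) and shape the time point. Pearson's r is 0.21 for Nppb and 0.497 for Agtr1a over 24 hearts. The highest Nppb hearts are ZT19 and ZT23 hearts of middle to high Nppa.

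The genes whose values followed the peptide genes most closely, by Pearson's r over the 24 hearts among all other genes, were these. For Nppb they were Ppp1r3c, which codes for a glycogen-targeting subunit of protein phosphatase 1 (r = 0.784), Slc38a2, an amino acid transporter gene (0.737), and Wdr1, which codes for an actin-disassembly factor (0.683). Within time points these values were 0.66, 0.707 and 0.523. For Nppa they were Pigg, of GPI anchor synthesis (0.806), the integrin gene Itgb6 (0.749) and Cecr2 (0.729), with 0.827, 0.787 and 0.753 within time points. For Agtr1a, added after the values were seen, they were Nabp1, whose protein binds single-stranded DNA (0.903), Chrm2, the muscarinic receptor gene of the heart (0.873), and Scin, the gene of the actin-severing protein scinderin (0.841). Within time points these 3 were 0.783, 0.68 and 0.54. Each is among the highest values over all other genes and is given as a description.

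In bulk heart RNA, fewer cells of a type and less RNA per cell cannot be told apart, so marker lists were set beside the members. Light minus dark was above 0 for 7 of 7 fibroblast markers, with a median of 0.12, against -0.0022 over all genes, of which 10519 of 22180 were above 0. It was 0.12 to 0.18 for the matrix genes Col1a1, Col3a1, Dcn and Lum, but 0.0086 for Col1a2, 0.0035 for Tcf21 and 0.00024 for Pdgfra, the last 2 being genes that mark the cell type itself. None passed light minus dark, and the collagen-binding gene Dcn passed ZT03 minus ZT15 (0.30 ± 0.07 SE, adjusted p = 0.0469 by limma). In ZT03 minus ZT15 the median of the fibroblast markers was 0.17. There Pdgfra was at 0.17 (unadjusted p = 0.0379, adjusted p = 0.343 by limma), Tcf21 at 0.08 (adjusted p = 0.83) and Col1a2 at -0.08 (adjusted p = 0.709). The mean of the list lay between -0.11 and 0.17 in light hearts and between -0.19 and 0.06 in dark hearts. Agtr1a, known to be made in cardiac fibroblasts, correlated with that mean at r = 0.435 (permutation p = 0.034, adjusted p = 0.421) and rho = 0.45 (permutation p = 0.0287), but at -0.026 within time points and at 0.321 without the 2 farthest hearts. Npr3 correlated with it at r = 0.425 (permutation p = 0.0384, adjusted p = 0.422) and rho = 0.565 (permutation p = 0.00474), and at 0.346 within time points. The part of fibroblast RNA in these results was not tested.

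For pericytes, which surround capillaries and in which mouse Agtr1a is also known, 3 of 5 markers were higher in light, with a median of 0.06 and a list mean of -0.08 to 0.13 in light hearts and -0.18 to 0.06 in dark hearts. Agtr1a correlated with that mean at r = 0.559 (permutation p = 0.00371, adjusted p = 0.116) and rho = 0.557 (permutation p = 0.00542), at 0.551 within time points and at 0.453 without the 2 farthest hearts. For atrial muscle, 5 of 6 markers were higher in light, with a median of 0.07, and the list mean ran from -0.26 to 0.44 in light hearts and from -0.25 to 0.28 in dark hearts. Nppa correlated with it at r = 0.395 (permutation p = 0.0563, adjusted p = 0.465) and rho = 0.335, and at 0.504 within time points (permutation p = 0.0373). How much atrium each sample held was not tested. Centred values hold no level, so no marker can be said to be at or near 0.

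Of 99 pairs of a member with a marker list, 0 passed an adjusted p of 0.05 by Pearson's r, with 9 at an unadjusted p under 0.05. By rank 1 pair passed, Agtr1a with skeletal muscle markers (rho = -0.677, permutation p = 0.00035, adjusted p = 0.0346). Its r was -0.627 (permutation p = 0.00117, adjusted p = 0.0837), -0.613 without the 2 farthest hearts and -0.287 within time points (permutation p = 0.193). The mean of that list varied little, between -0.05 and 0.06 in light hearts and between -0.01 and 0.08 in dark hearts. Whether those markers lay above background is unknown. Ace correlated with the immune list at r = 0.604 (permutation p = 0.00169, adjusted p = 0.0837, rho = 0.53 with p = 0.0086). Its r was 0.563 with the pericyte list (permutation p = 0.0047, adjusted p = 0.116, rho = 0.505 with p = 0.0128) and 0.53 with the cardiomyocyte list (permutation p = 0.00726, adjusted p = 0.144, rho = 0.552 with p = 0.00555). Within time points these values of r were 0.647, 0.681 and 0.665, and without the 2 hearts farthest from the median of Ace they were 0.46, 0.421 and 0.423. With the endothelium list r of Ace was 0.349 (permutation p = 0.0934, adjusted p = 0.579, rho = 0.42 with p = 0.0421), and 0.485 within time points. With the ventricle list it was 0.462 (permutation p = 0.028, adjusted p = 0.396, rho = 0.523 with p = 0.0097), and 0.248 within time points. Other than Dcn, 0 markers of the lists for cardiomyocytes, ventricle, atrium, fibroblasts, pericytes, smooth muscle, endothelium, immune cells, adipocytes, skeletal muscle and mesothelium passed any of the 6 tests. Of 4 blood markers, 0 were measured.

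Other genes of both systems were read from 4 lists, and 0 of them passed any of the 6 tests by limma, where 1.48% of all genes passed the F test. Of all 22180 genes, 2973 had an unadjusted p under 0.05 over time points and 2336 in light minus dark. The counts of unadjusted p-values in the lists are to be read against these. Of 15 measured renin-angiotensin genes, 8 were higher in light, with a median light minus dark difference of 0.0022, and 1 had an unadjusted p under 0.05 over time points and 3 in light minus dark. The smallest p over time points belonged to Mme, the neprilysin gene, whose enzyme degrades natriuretic peptides and angiotensins (range of means 0.48, adjusted p = 0.106, light minus dark -0.17), and to the corticosteroid enzyme gene Hsd11b1 (0.16, adjusted p = 0.493). Of 17 genes of peptide processing and cyclic GMP, 10 were higher in light, with a median of 0.01, and 3 and 2 had such unadjusted p-values. Its first genes were Ece1, which codes for an endothelin-converting enzyme (range of means 0.28, adjusted p = 0.191), and Pde3a, a phosphodiesterase gene of heart muscle (0.31, adjusted p = 0.206). Light minus dark was 0.20 ± 0.05 SE for Ece1 (adjusted p = 0.0849) and 0.21 ± 0.06 SE for Pde3a (adjusted p = 0.109), neither past the threshold.

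Of 19 measured genes of type 1 receptor signalling, 14 were higher in light, with a median of 0.04, and 5 and 3 had an unadjusted p under 0.05. The smallest p-values over time points were those of the kinase gene Jak2 (range of means 0.33, adjusted p = 0.142) and of Tgfb1, the gene of a fibrosis-promoting cytokine (0.25, adjusted p = 0.15), neither past the threshold. Of 16 measured genes listed for regulation of the peptide genes, 8 were higher in light, with a median of 0.0062, and 7 and 3 had an unadjusted p under 0.05. Over all 22180 genes such p-values numbered 2973 and 2336. The list also holds Myh7 and Acta1, contractile protein genes known to be induced together with the peptide genes in loaded hearts, and Myh7 is 1 of the 7. Zfpm2, which codes for a cofactor of GATA4 (range of means 0.30, adjusted p = 0.102), and Gata6, which codes for a GATA factor (0.36, adjusted p = 0.148, and 0.21 ± 0.05 SE in light minus dark, adjusted p = 0.0849), came first and did not pass.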

How the data were processed

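Transcripts were measured on single-colour Affymetrix arrays, 1 per heart, in 24 hearts. Per the labels' protocols, total RNA was labelled as cRNA. Each deposited value is a log2 value (the base is an assumption) from which the authors had subtracted the feature's median over the arrays. Summarization, normalization between arrays and log base are not given in the sources used here. If the base were e, each size would be 1.44 times larger in log2 units, with the same p-values.

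Features were named by the platform annotation (23521 with 1 symbol, 1814 with several, 9016 with none), checked against RefSeq, and features of a gene averaged, which left 22180 genes. No filter on low values could be applied to centred values, so all 9 members were tested. The number of arrays limits the precision, and signal over background is unknown.

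limma 3.58.1 (R 4.3.3) fitted 6 time-point means, with a moderated F test, contrasts of light minus dark and of times 12 h apart, and, apart, a cosine and sine of 24 h. Adjustment was by Benjamini-Hochberg over all genes at 0.05. Correlations used 100000 permutations of hearts. On simulated data with 200 of 22180 genes changed, light minus dark recovered 72.5% of differences of 0.2 and 98% of 0.4, ZT03 minus ZT15 recovered 35.5% and 75.5%, and the 24 h fit 39.5% at a peak-to-trough of 0.2 and 87% at 0.4. The changed genes were drawn at random from all genes, whose median SD within time points was 0.087. These rates therefore do not hold for Nppa and Nppb, whose SDs were 0.41 and 0.36. They can also be too high for Agtr1a, Corin, Npr3 and Ace, whose SDs of 0.14, 0.13, 0.13 and 0.10 lay above that median. False calls numbered 4 to 11 in each simulation. The spacing of the deposited numbers was compared with that of single-precision numbers (tolerance 1e-07): 666 features (1.94%) lay on the grid of values of 8 or more.

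All 9 members are named. From each list, genes past any test are named or, where 0 passed, the 2 of smallest p over time points. Genes alike in profile are the 3 of highest r for each member that passed, or, with fewer than 2 such members, for the 2 members of widest range of means. Members and lists were chosen with earlier results of these data known. Some listed genes are not reported here. Alternatives were quantile normalization, centring arrays on their median, array weights, robust variance, single features, the feature of largest SD, a replicate block and leaving out each heart. A RefSeq promoter was matched for 8 of 9 members, all but Agtr1a.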

Additional observations from a re-analysis of the deposited data

Results flagged for a closer look

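Groups of 4 hearts were tested for a heart far from the other 3 (gap to the nearest heart over the range of the group, Dixon's test at its 95% critical value). Of 54 groups of the 9 genes, 2 held such a heart, and chance alone gives about 1 in 20. For Agtr1a, ZT07 replicate 1 lay at 0.041, against 0.23, 0.26 and 0.25 in the other ZT07 hearts. For Npr1, ZT19 replicate 4 lay at 0.14, against -0.02, -0.02 and -0.04 in the other ZT19 hearts; this was also the heart with the highest Nppb, at 1.11. No explanation of these hearts was tested.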

How the results depend on the processing

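Values of the 9 genes were recomputed 1230 times over 41 results: 1201 kept their direction and side of the threshold, 10 lost a call, 6 gained one and 13 turned sign. The sign turned only in leave-one-out fits of differences near 0. Over the 24 fits, light minus dark ranged from -0.0058 to 0.016 for Agtr1b (-0.00055, -0.0015 and -0.0016 being the other negative values) and from -0.040 to 0.0016 for Ace. ZT03 minus ZT15 ranged from -0.055 to 0.010 for Agtr1b, -0.0070 to 0.051 for Ace, -0.055 to 0.0036 for Agt, -0.15 to 0.11 for Nppb (0.02 and 0.10 also above 0) and -0.10 to 0.015 for Npr1 (0.00019 also above 0). The cause was not tested. Replicate numbers are shared by the groups, and neither the labels nor the values settle that they pair hearts. Correlations of same-number hearts ran from -0.233 to 0.232 (median -0.00075, against -0.00096 for other numbers), while 10 of 24 hearts correlated best with their own number. That count was not set against the count that chance gives, so nothing is read from it. With the replicate block, 218 genes and 2 members (Agtr1a and Npr3) passed the F test, 76 genes and 1 member light minus dark, and 197 genes and 2 members ZT03 minus ZT15. Quantile normalization gave 144 genes in light minus dark, 8 in ZT07 minus ZT19, 1 in ZT11 minus ZT23 and 30 in the 24 h fit. Array weights gave 404 genes and 2 members in ZT03 minus ZT15, 1 gene in ZT07 minus ZT19 and 59 in the 24 h fit, where single features gave 3. Leaving out 1 heart, the F test gave 28 (without ZT03 replicate 3) to 467 genes and 0 to 1 member, light minus dark 51 to 183 genes and 1 member throughout, ZT03 minus ZT15 25 to 326 genes and 0 to 2 members, ZT07 minus ZT19 0 to 3 genes, ZT11 minus ZT23 0 to 4 genes, and the 24 h fit 3 to 45 genes and 0 to 1 member. Counts of correlations past the threshold stayed at 0 within time points and without the 2 farthest hearts. With 4 hearts per time point, smaller changes than those of Agtr1a can be missed. Larger ones can be missed too in genes of wide spread such as Nppa and Nppb. Signal over background could not be read.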
